A study of Mus musculus with 6 samples.

Results

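The 9 genes described here encode enzymes and chaperones that act on collagen chains inside the endoplasmic reticulum (ER). They were taken by name from the authors' table: P4ha1, P4ha2 and P4hb, subunits of prolyl 4-hydroxylase, Plod1, Plod2 and Plod3, the lysyl hydroxylases, Serpinh1, which encodes the collagen chaperone Hsp47, and Crtap and Ppib, members of the prolyl 3-hydroxylation complex. All 9 were among the 14882 genes listed, and all 9 passed the filter on low values, as did 9128 genes in all.

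Collagen chains are hydroxylated before they fold. Hydroxyproline made by prolyl 4-hydroxylase stabilises the triple helix at body temperature, and hydroxylysine made by lysyl hydroxylases carries sugars and takes part in the crosslinks that join molecules in the matrix. Hsp47 binds the folded helix and accompanies it out of the ER. Loss of CRTAP, cyclophilin B or Hsp47 in people causes forms of osteogenesis imperfecta. Growth plate chondrocytes secrete large amounts of collagen, type II in most zones and type X in the hypertrophic zone.

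Gene expression was measured by RNA sequencing in hypertrophic zones, the layer of enlarged chondrocytes next to bone, of the proximal tibial growth plate of C57BL/6 mice aged 7 days. There were 3 wild-type (WT) libraries and 3 from Adamts17-/- littermates, in which both copies of the gene for a secreted ADAMTS metalloprotease are mutant. Per the labels' protocols, zones were cut from frozen sections by laser microdissection and the RNA was linearly amplified before library preparation. Neither the allele nor whether each library came from 1 animal is given in the sources used here, so the spread behind each p-value is that of these libraries and may be technical. In captured tissue, fewer cells of a type and less RNA per cell cannot be told apart.

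Levels are given as RPKM, reads per kilobase of transcript scaled to library size, in the order of replicates 1, 2 and 3 within each group. The libraries were shallow, with 595989 to 2688295 read equivalents on the listed genes and 391 to 3153 genes listed at 0. A read equivalent is a value times its transcript length, divided by the step that stands for 1 read in that library. The gene with the most read equivalents held 2.26%, 5.5% and 19.1% of them in WT and 5.92%, 5.92% and 15.4% in Adamts17-/-. It was Fndc9 except in Adamts17-/- replicate 2, where it was Hbb-b1. Of the 54 values of the 9 genes, 15 rested on fewer than 10 read equivalents, 6 of these on fewer than 1, and 2 were listed at 0. Adamts17 itself could not check the labels, because it held 6.49 read equivalents in the WT group and 1.25 in the Adamts17-/- group. The tissue's defining collagen gene, Col10a1, lay between 1437 and 13347 RPKM in all 6 libraries.

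All 9 genes had a lower mean log2(RPKM + 1) in the Adamts17-/- libraries, and none of the differences passed the test. The median log2 fold change over the 9 genes was -0.93, against 0.08 over all genes tested, of which 47.2% had a value below 0. Among the 4644 genes with a mean of at least 10 RPKM, 42.9% had a value below 0. The 9 genes were chosen with earlier results of these data known, so these figures describe the list and do not test it. By limma with Benjamini-Hochberg adjustment, 0 of the 9 genes had an adjusted p under 0.05, as did 0 of 9128 genes (0.0%). At an unadjusted p under 0.05 there were 0 of the 9 genes and 229 of 9128 (2.51%), 125 of them lower (1.37%) and 104 higher (1.14%). A log2 fold change of -1 or below was seen for 4 of the 9 genes, Plod1, P4ha1, Plod2 and Serpinh1, and for 19.0% of all genes tested. The groups overlapped for all 9, while 6.63% of genes tested had groups without overlap. Each SE of a fold change given here is limma's moderated SE, which draws on the variance of all genes tested. Over all genes the SE of a single gene's difference had a median of 1.48.

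The low values were mostly in Adamts17-/- replicates 1 and 3. The mean log2(RPKM + 1) of the 9 genes was 4.58, 4.20 and 4.31 in the WT libraries, against 2.55, 4.52 and 2.40 in the Adamts17-/- libraries. On this scale Adamts17-/- replicate 2 lay among the WT libraries. Relative to the mean of all genes tested in the same library, the mean of the 9 genes was 1.27, 1.39 and 1.60 log2 units higher in WT, and the difference was -0.53, 1.22 and -0.25 in Adamts17-/-. Measured so, the groups did not overlap, with Adamts17-/- replicate 2 just below the WT libraries, at 1.22 against 1.27. Of single genes tested, 6.63% had groups without overlap. The share among means of lists was not computed, so nothing was concluded from this. Of the 9 genes, 5 had their lowest value in Adamts17-/- replicate 3, 3 in replicate 1 and 1 in replicate 2. Adamts17-/- replicate 3 was the shallowest of the 6 libraries, at 595989 read equivalents, and Adamts17-/- replicate 2 the deepest, at 2688295. Adamts17-/- replicate 1, at 882809, lay between WT replicates 2 and 3, at 722119 and 899162. The part of depth in these differences was not tested. Without Adamts17-/- replicate 2 the median log2 fold change was -1.92, and without replicate 1 it was -0.55.

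**Figure D1:**
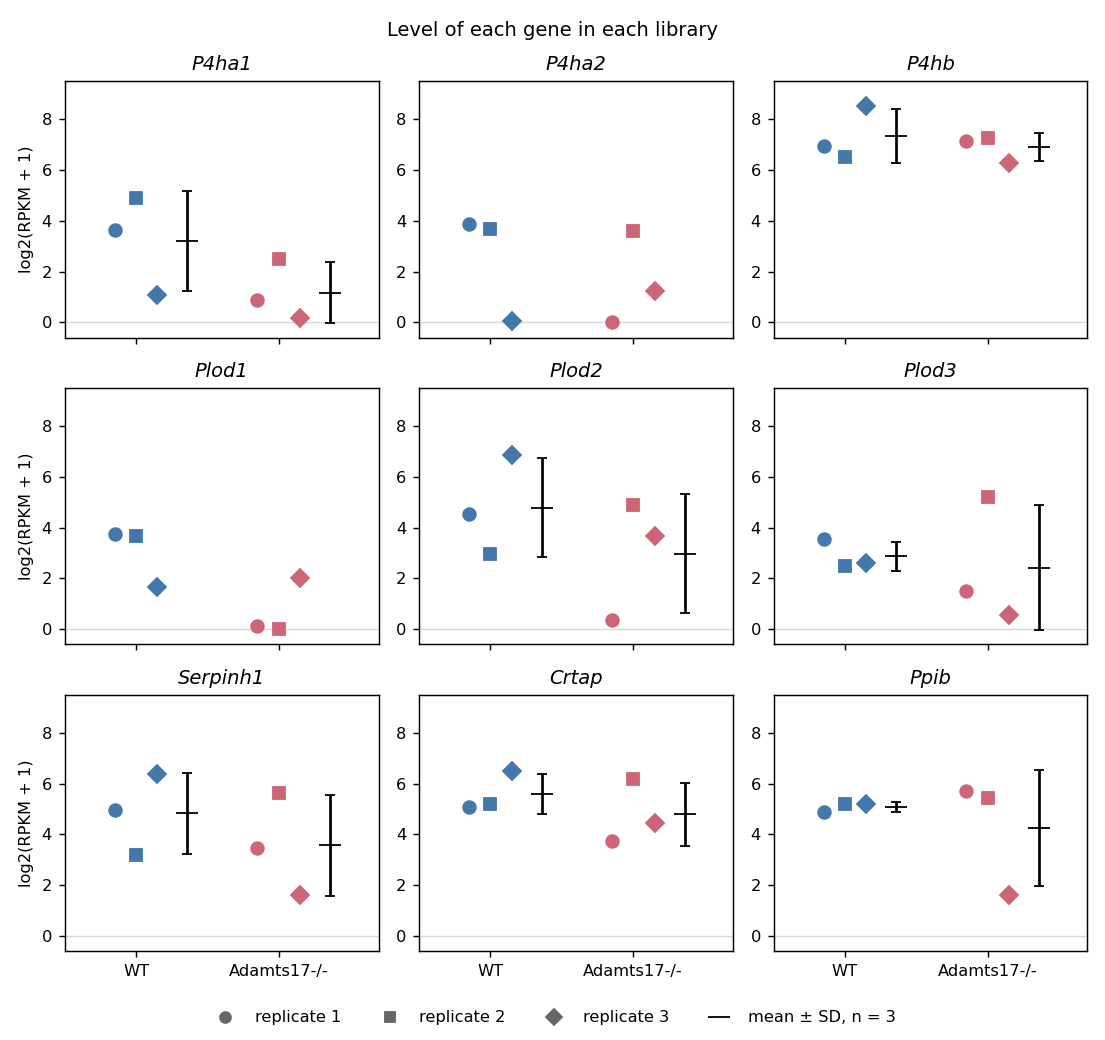
Level of each of the 9 genes as log2(RPKM + 1) in each library, with circles, squares and diamonds for replicates 1, 2 and 3, WT in blue and Adamts17-/- in red. Black bars give the mean and SD of 3 libraries and are left out for P4ha2 and Plod1, which were each listed at 0 in 1 library. The groups overlap in every panel.

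Prolyl 4-hydroxylase joins catalytic alpha subunits, encoded by P4ha1, P4ha2 and P4ha3, with the beta subunit protein disulfide isomerase, encoded by P4hb. P4hb had the highest level of the 9 genes and the smallest spread over libraries. Its level was 122, 88.9 and 366 RPKM in WT, against 142, 153 and 76.0 RPKM in Adamts17-/-, each from at least 123 read equivalents. WT replicate 3 stood highest, and the other WT libraries lay within the Adamts17-/- range. Its log2 fold change was -0.42 ± 1.13 (moderated SE, 3 libraries a group, limma adjusted p = 0.999), and without WT replicate 3 it was 0.18. In each library P4hb lay between the 91.2 and 97.8 percentiles of the genes tested.

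The catalytic subunits had lower and more uneven levels. P4ha1, the alpha subunit found in most tissues, was at 11.4, 29.2 and 1.08 RPKM in WT and at 0.827, 4.58 and 0.129 RPKM in Adamts17-/-. WT replicates 1 and 2 were above all Adamts17-/- libraries, and WT replicate 3 was below Adamts17-/- replicate 2. The log2 fold change was -2.03 ± 1.57 (SE, limma unadjusted p = 0.205, adjusted p = 0.999). P4ha2, an isoenzyme known to be prominent in chondrocytes and bone, was at 13.7, 11.9 and 0.0249 RPKM in WT and at 0, 11.0 and 1.34 RPKM in Adamts17-/-. WT replicate 3, with 0.05 read equivalents, and Adamts17-/- replicate 1 stood far below the rest, so each group held both high and low libraries. Its log2 fold change was -0.93 ± 1.56 (SE, adjusted p = 0.999). P4ha3, outside the 9 genes, was at most 5.07 RPKM in any library and did not pass the filter.

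Read per length, the summed alpha subunits amounted to 24.7%, 46.9% and 0.330% of P4hb in WT, and to 0.641%, 10.2% and 2.85% in Adamts17-/-. P4hb exceeded the alpha subunits in all 6 libraries, in proportion by the most in WT replicate 3, where P4ha1 and P4ha2 held 3.75 and 0.05 read equivalents. P4hb also serves as a general disulfide isomerase outside this enzyme. The promoter windows of these subunit genes (250 bases before to 50 after the start, RefSeq, GRCm38.p6) are shown because the subunits of 1 enzyme differed so in level. Capitals mark ACGTG and GCGTG, cores of the sites bound by hypoxia-inducible factors, on either strand, with overlapping matches allowed.
P4ha1 (chr10:59323046-59323345, plus strand): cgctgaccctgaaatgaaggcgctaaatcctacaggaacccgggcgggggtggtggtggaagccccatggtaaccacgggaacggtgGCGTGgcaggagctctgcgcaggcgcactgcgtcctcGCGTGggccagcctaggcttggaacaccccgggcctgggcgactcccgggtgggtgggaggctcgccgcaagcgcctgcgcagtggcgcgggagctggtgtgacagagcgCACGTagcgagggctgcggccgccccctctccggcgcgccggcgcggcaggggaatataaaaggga
P4ha2 (chr11:54100674-54100973, plus strand): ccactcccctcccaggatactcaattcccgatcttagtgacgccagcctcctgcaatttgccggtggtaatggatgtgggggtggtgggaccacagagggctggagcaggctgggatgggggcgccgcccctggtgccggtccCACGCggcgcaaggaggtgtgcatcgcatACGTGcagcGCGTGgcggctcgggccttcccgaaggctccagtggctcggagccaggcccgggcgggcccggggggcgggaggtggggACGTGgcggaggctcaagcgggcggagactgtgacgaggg
P4hb (chr11:120573204-120573503, minus strand): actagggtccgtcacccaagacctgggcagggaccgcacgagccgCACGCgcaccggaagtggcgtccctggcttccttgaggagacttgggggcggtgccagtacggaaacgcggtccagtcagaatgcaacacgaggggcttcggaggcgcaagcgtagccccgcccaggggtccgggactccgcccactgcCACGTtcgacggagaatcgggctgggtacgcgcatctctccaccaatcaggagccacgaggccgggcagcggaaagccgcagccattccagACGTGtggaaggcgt

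The P4ha1 window held 3 matches, that of P4ha2 held 4 and that of P4hb held 3. A window was found for 8 of the 9 genes, all but Plod2, and all 8 held at least 1 match, from 1 in Serpinh1 to 7 in Ppib. Of 27025 promoter windows, 1 a gene, 43.8% held one. The windows of these genes were also richer in G and C, with a median of 65.7% against 52.7% over all windows. Neither the ER stress element (CCAAT, then 9 bases of any kind, then CCACG) nor the heat shock element (GAA, TTC and GAA with 2 bases of any kind between them), searched on both strands, was found in the 8 windows, against 0.13% and 0.529% of all windows. These matches are letters in a window and were not measured as bound sites.

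**Figure D2:**
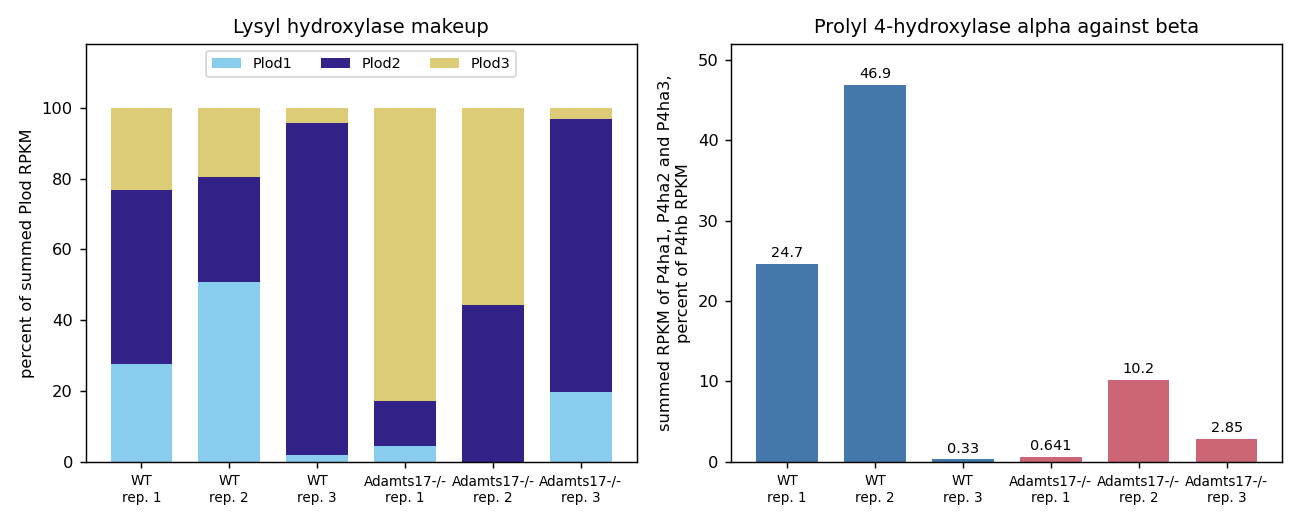
Left, share of Plod1, Plod2 and Plod3 in their summed RPKM in each library, in percent. Right, summed RPKM of P4ha1, P4ha2 and P4ha3 as a percentage of P4hb RPKM, with WT in blue and Adamts17-/- in red. Plod2 held 94.0% of the sum in WT replicate 3 and Plod3 held 82.9% in Adamts17-/- replicate 1, and the alpha share ran from 0.330% to 46.9%. Plod3 held 6.11 read equivalents in Adamts17-/- replicate 1, and P4ha1 held 3.75 in WT replicate 3, the library of the lowest alpha share.

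Of the lysyl hydroxylases, Plod1 and Plod2 had log2 fold changes of -2.32 and -1.81 and Plod3 one of -0.45. Plod1 hydroxylates lysines within the helix. It was at 12.5, 11.7 and 2.15 RPKM in WT, from 117, 30.0 and 6.00 read equivalents, and at 0.0998, 0 and 3.00 RPKM in Adamts17-/-, from 0.333, 0 and 6.22. WT replicates 1 and 2 stood above the other libraries, and Adamts17-/- replicate 3 lay above WT replicate 3. Its difference was the largest of the 9 genes, with a log2 fold change of -2.32 ± 1.39 (SE, limma unadjusted p = 0.106, adjusted p = 0.999), and 551 of the 9128 genes had a p no larger.

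Plod2 hydroxylates the telopeptide lysines that form pyridinoline crosslinks. It was at 22.2, 6.86 and 114 RPKM in WT and at 0.275, 28.9 and 11.8 RPKM in Adamts17-/-. WT replicate 3 was highest and Adamts17-/- replicate 1 lowest, with the other 4 libraries mixed between them. Its log2 fold change was -1.81 ± 1.56 (SE, adjusted p = 0.999), and it was -0.49 without Adamts17-/- replicate 1. Plod3, which also adds sugars to hydroxylysine, was at 10.6, 4.56 and 5.09 RPKM in WT and at 1.81, 36.3 and 0.478 RPKM in Adamts17-/-. Adamts17-/- replicate 2 was highest and the other Adamts17-/- libraries were lowest, so the WT libraries lay between them. Its log2 fold change was -0.45 ± 1.65 (SE, adjusted p = 0.999), and it was 0.021 without Adamts17-/- replicate 1 and 0.49 without replicate 3.

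The leading lysyl hydroxylase differed from library to library. Plod2 held 48.9%, 29.6% and 94.0% of the summed Plod RPKM in WT and 12.6%, 44.4% and 77.3% in Adamts17-/-. Plod1 led in WT replicate 2 with 50.7%, and Plod3 led in Adamts17-/- replicates 1 and 2 with 82.9% and 55.6%. In Adamts17-/- replicate 1 the sum itself was 2.19 RPKM, against 15.3 to 121 in the other 5 libraries. Its shares rest on 0.333, 1.05 and 6.11 read equivalents of Plod1, Plod2 and Plod3. Over all its annotated transcripts, Plod3 shares 529 of 4519 exonic bases with Znhit1 on the opposite strand (GENCODE vM21). The counting is not stated to use strand, so reads of the pair cannot be told apart there. Znhit1 was at 3.39 to 10.3 RPKM in WT and 9.11 to 27.4 RPKM in Adamts17-/-.

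Serpinh1 encodes Hsp47, a chaperone dedicated to collagens. It was at 29.8, 8.12 and 81.2 RPKM in WT and at 9.96, 48.2 and 2.11 RPKM in Adamts17-/-. WT replicate 3 and Adamts17-/- replicate 2 were highest, and Adamts17-/- replicate 3, with 3.29 read equivalents, was lowest. The log2 fold change was -1.26 ± 1.48 (SE, limma unadjusted p = 0.401, adjusted p = 0.999), and with 1 library left out it lay between -2.29 (Adamts17-/- replicate 2) and -0.30 (replicate 3). Serpinh1 RPKM was 1.20%, 0.0558% and 1.26% of summed Col10a1 and Col2a1 RPKM in WT and 0.628%, 2.92% and 0.0458% in Adamts17-/-. In Adamts17-/- replicate 2, Col1a1 and Col1a2, outside this sum, were at 1565 and 3610 RPKM, against 1507 and 144 for Col10a1 and Col2a1.

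The prolyl 3-hydroxylation complex joins the enzyme prolyl 3-hydroxylase 1, encoded by P3h1, with the helper protein CRTAP and the prolyl isomerase cyclophilin B, encoded by Ppib. Crtap was at 33.3, 35.6 and 90.6 RPKM in WT and at 12.5, 71.5 and 21.0 RPKM in Adamts17-/-, each from at least 22.1 read equivalents. Adamts17-/- replicates 1 and 3 lay below all WT libraries and replicate 2 above WT replicates 1 and 2. Its log2 fold change was -0.80 ± 1.31 (SE, adjusted p = 0.999).

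Ppib was at 28.3, 35.8 and 35.5 RPKM in WT and at 51.7, 41.7 and 2.04 RPKM in Adamts17-/-. Adamts17-/- replicate 3, with 1.25 read equivalents, stood far below the rest, while the other Adamts17-/- libraries lay above all WT libraries. The log2 fold change was -0.84 ± 1.41 (SE, adjusted p = 0.999), and it was 0.48 without that library. Over all its annotated transcripts, Ppib shares 825 of 3305 exonic bases with Snx22 on the opposite strand, so reads of the pair cannot be told apart there. The part that lies in the listed transcript of 960 bp was not computed. Snx22 was at 29.7, 30.9 and 40.9 RPKM in WT and at 46.9, 62.7 and 21.5 RPKM in Adamts17-/-, and it held 35.0 read equivalents in Adamts17-/- replicate 3.

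P3h1, the catalytic partner and not one of the 9 genes, was at 7.81, 2.27 and 62.0 RPKM in WT and at 1.45, 0.142 and 0.0233 RPKM in Adamts17-/-. Every Adamts17-/- library lay below every WT library, as for 3.54% of genes tested, and those libraries held 6.05 read equivalents in all. Its log2 fold change was -3.10 ± 1.52 (SE, limma unadjusted p = 0.0494, adjusted p = 0.999) and did not pass the test.

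**Figure D3:**
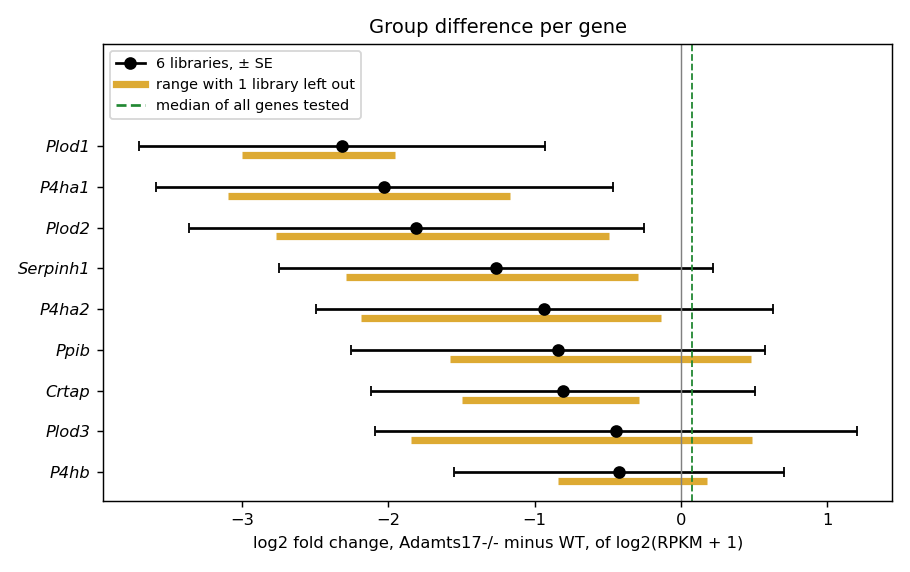
Log2 fold change of each of the 9 genes, Adamts17-/- minus WT, on the log2(RPKM + 1) scale, with its SE (black) and its range when each library was left out in turn (yellow). All 9 values lie below 0 and below the median of all genes tested (dashed, 0.08), and the yellow ranges of P4hb, Plod3 and Ppib cross 0.

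In order of mean log2(RPKM + 1) over the 6 libraries, P4hb came first at 7.11 ± 0.79 (SD, n = 6), followed by Crtap at 5.20 ± 1.03, Ppib at 4.67 ± 1.53, Serpinh1 at 4.20 ± 1.75 and Plod2 at 3.88 ± 2.17. Plod3, P4ha1, P4ha2 and Plod1 followed at 2.65, 2.19, 2.07 and 1.87. P4hb exceeded Crtap in 6 of 6 libraries, by 1.91 ± 0.81 on this scale (SD). The other neighbours in the order differed by less than the SD of their difference over libraries.

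The genes did not share 1 pattern over the libraries. The closest pair was P4hb and Crtap, whose centred log2 values differed by a root mean square of 0.74, followed by P4ha1 and P4ha2 at 0.97. The most distant pair was P4ha1 and Plod2 at 2.56, and WT replicate 3, the highest library for Plod2, was among the lower ones for P4ha1. Among 4644 genes with a mean of at least 10 RPKM, the 4 nearest to the mean of the 9 genes over the 6 libraries were Zc3h11a (0.31), Higd1a (0.40), Srp19 (0.42) and Emp1 (0.44), against a median of 1.89 over these genes. Of the 9 genes, 5 had a mean this high, and none of these 5 was among the 8 nearest.

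The collagens, the clients of these proteins, had mostly lower means in Adamts17-/- as well. Of 17 collagen genes tested, 2 had a higher and 15 a lower mean in Adamts17-/-, with 0 called and a median log2 fold change of -1.48. Of all genes tested, 47.2% were lower. By limma, 0 of the 17 had an unadjusted p under 0.05. Their mean log2(RPKM + 1) was 5.82, 5.81 and 5.77 in the WT libraries, against 4.15, 5.43 and 3.95 in the others. The groups did not overlap, but nothing was concluded from this, as the share among means of lists was not computed. Adamts17-/- replicates 1 and 3 had the lowest means. Col10a1 and Col2a1 were ordered otherwise, both higher in Adamts17-/- replicate 3 than in replicates 1 and 2 and in WT replicate 1. Col1a1 and Col1a2 were both highest in Adamts17-/- replicate 2 and, within that group, lowest in replicate 3. Col1a2 was at 607, 44.2 and 401 RPKM in WT and at 332, 3610 and 66.2 RPKM in Adamts17-/-. The mean of the 9 genes minus that of the collagens was -1.24, -1.61 and -1.46 log2 units in WT, against -1.60, -0.91 and -1.55 in Adamts17-/-. This distance overlapped between the groups. Col2a1, the main cartilage collagen, was at 265, 1212 and 560.1 RPKM in WT and at 148, 144 and 448 RPKM in Adamts17-/- (log2 fold change -1.41 ± 1.05, SE, adjusted p = 0.999). Summed over the 9 genes, RPKM was 11.4%, 1.60% and 10.8% of summed Col10a1 and Col2a1 in WT and 13.8%, 23.9% and 2.57% in Adamts17-/-. The collagen sum leaves out Col1a1 and Col1a2, each of which stood above Col10a1 in Adamts17-/- replicate 2 (1565 and 3610 against 1507 RPKM).

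**Figure D4:**
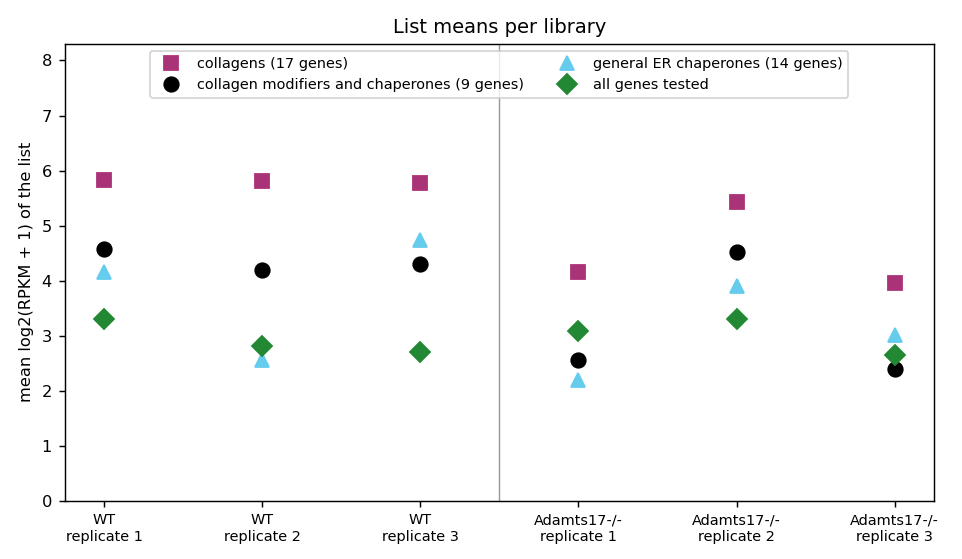
Mean log2(RPKM + 1) in each library of the 9 collagen modifying genes (circles), 17 collagens (squares), 14 general ER chaperones (triangles) and all genes tested (diamonds). The circles and squares are lowest in Adamts17-/- replicates 1 and 3, where the mean of the 9 genes lies under that of all genes tested.

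Other genes of collagen modification and folding were divided, with 4 higher and 5 lower of 9 tested, 0 called and a median log2 fold change of -0.23. Fkbp10, an ER isomerase for procollagen, was at 44.4, 5.40 and 35.0 RPKM in WT and at 23.9, 39.2 and 88.5 RPKM in Adamts17-/- (log2 fold change 1.03 ± 1.35, SE). Fkbp14, a related isomerase, was listed at 0 in WT replicate 2 and Adamts17-/- replicate 3 and lay between 0.0263 and 42.8 RPKM in the other libraries. Colgalt1, which adds galactose to hydroxylysine, had a log2 fold change of -0.56 ± 1.61. Sparc, an extracellular collagen-binding protein, was at 568 to 847 RPKM in WT and 241 to 1767 RPKM in Adamts17-/-. The prolyl 3-hydroxylase gene P3h3 had a log2 fold change of 0.18 ± 1.66 and P3h4, which encodes a partner of lysyl hydroxylation, one of 1.05 ± 1.62. Tmem38b, an ER cation channel gene mutated in osteogenesis imperfecta, was at 0.39 ± 1.12 and the disulfide isomerase gene Pdia3 at -0.62 ± 1.65, while Colgalt2, P4htm and P4ha3 did not pass the filter.

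Procollagen export genes numbered 4 higher and 6 lower of 10 tested, with 0 called and a median of -0.24. Kdelr3, a receptor that returns ER residents such as Hsp47 and P4hb, was at 18.6, 65.7 and 61.1 RPKM in WT and at 0.723, 8.43 and 0 RPKM in Adamts17-/- (log2 fold change -4.10 ± 1.54, SE, limma unadjusted p = 0.0124, adjusted p = 0.999). Its groups did not overlap, and the Adamts17-/- libraries held 26.05 read equivalents of it in all. Kdelr2, a receptor of the same family, was at 32.8, 60.1 and 69.6 RPKM in WT and at 11.0, 123 and 41.6 RPKM in Adamts17-/- and did overlap. Sar1a, a coat protein of the vesicles that leave the ER, was at 59.2, 87.8 and 67.3 RPKM in WT and at 35.9, 30.8 and 34.9 RPKM in Adamts17-/-, without overlap (log2 fold change -1.04 ± 1.23, adjusted p = 0.999). On the higher side, Trappc2, which encodes a trafficking protein needed for procollagen export, was at 8.28, 4.58 and 37.7 RPKM in WT, against 129, 9.63 and 16.0 RPKM in Adamts17-/- (1.18 ± 1.47), with overlap. Creb3l1, a transcription factor of secretory genes, was at 1.18, 4.23 and 8.33 RPKM in WT, against 7.03, 33.2 and 1.86 RPKM in Adamts17-/- (0.96 ± 1.62), also with overlap.

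Procollagen processing and crosslinking genes numbered 4 higher and 7 lower of 11, with 0 called and a median of -0.61. Loxl3, of the lysyl oxidases that act on lysine and hydroxylysine of secreted collagen, was at 11.5, 0.943 and 53.4 RPKM in WT and at 0, 0.0399 and 1.16 RPKM in Adamts17-/- (log2 fold change -3.07 ± 1.47, SE, limma adjusted p = 0.999). The Adamts17-/- libraries held 3.34 read equivalents of Loxl3 in all. Lox, of the same family, was at 12.3, 0.0652 and 88.8 RPKM in WT and at 12.8, 49.7 and 25.7 RPKM in Adamts17-/- (1.29 ± 1.56). Of the procollagen peptidases, Adamts14 had a log2 fold change of -2.29 ± 1.02, without overlap between groups, and Adamts3 one of 1.27 ± 1.62, with overlap (limma adjusted p = 0.999 for both). Adamts14 passed the filter on low values through the WT libraries alone, the lowest of which had 1.09 RPKM. No Adamts17-/- library exceeded 0.317 RPKM, and that group held 1.38 read equivalents in all. A gene that passes in this way cannot overlap between groups, so nothing was concluded from its lack of overlap.

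General ER chaperones numbered 6 higher and 8 lower of 14 tested, with 0 called and a median log2 fold change of -0.24. Pdia6, a disulfide isomerase, was at 88.9, 27.6 and 251 RPKM in WT and at 0.458, 48.7 and 0 RPKM in Adamts17-/- (-4.38 ± 1.56, SE, limma unadjusted p = 0.00846, adjusted p = 0.999). Sdf2l1, a partner of ER Hsp40 proteins, was at -3.40 ± 1.62, without overlap between groups, from 13.55 read equivalents in all in Adamts17-/-. On the higher side, Ero1l, an oxidase that recharges disulfide isomerases, was at 0.97 ± 1.09 and Canx, the lectin chaperone calnexin, at 0.63 ± 1.37, both with overlap. Hspa5, the general ER chaperone BiP, was at 92.0, 27.3 and 375 RPKM in WT and at 17.5, 243 and 72.5 RPKM in Adamts17-/-. Like P4hb, Serpinh1, Crtap and Plod2, it was highest in WT replicate 3. P4ha1, P4ha2 and Plod2 are known to be induced by hypoxia, and other hypoxia response genes numbered 6 higher and 6 lower of 12, with 0 called and a median of 0.09. Pdk1, a kinase that restrains pyruvate oxidation, was at 5.27, 31.7 and 7.24 RPKM in WT, against 64.0 and 66.7 RPKM in Adamts17-/- replicates 1 and 2, with replicate 3 within the WT range (1.61 ± 1.42). Pfkfb3, a regulator of glycolysis, was at 6.33, 4.88 and 6.57 RPKM in WT, against 4.50, 0.0453 and 0.297 RPKM in Adamts17-/-, without overlap (-1.82 ± 1.38). The Adamts17-/- libraries held 25.9 read equivalents of Pfkfb3 in all. The glycolytic enzyme gene Pgk1 was at -1.08 ± 1.12, and Egln1, an oxygen-sensing prolyl hydroxylase gene, at 1.23 ± 1.41.

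Markers of cell types differed between single libraries. The list of hypertrophic chondrocyte markers numbered 5 higher and 11 lower of 16 tested (median -0.94). It holds Col2a1, Acan, Sox9, Comp and Matn3, genes of cartilage in general, and these 5 were lower, while the other 11 were divided into 5 higher and 6 lower with a median of -0.08. This split was chosen after the values were seen, so it is description only. The summed RPKM of the list was 4848 to 16886 in WT and 3620.2 to 6646 in Adamts17-/-. Osteoblast markers numbered 3 higher and 4 lower of 7 and summed to 105 to 853 RPKM in WT and 134 to 5272 in Adamts17-/-, with the maximum in replicate 2. Of them, 1, 1 and 2 were listed at 0 in WT and 0, 0 and 3 in Adamts17-/-. Bglap2 and Sp7 were at 0 in both groups' replicate 3, and Bglap in that of Adamts17-/-. Fibroblast and perichondrium markers numbered 3 and 3 of 6 and summed to 60.2 to 585 RPKM in WT and 27.6 to 1689 in Adamts17-/-, again with the maximum in replicate 2. Of them, 1, 4 and 3 were listed at 0 in WT and 4, 1 and 3 in Adamts17-/-. Dcn, Thy1 and Scx were at 0 in both Adamts17-/- replicate 3 and WT replicate 2. In Adamts17-/- replicate 2 Col1a1, the main bone collagen and a member of both lists, was at 1565 RPKM against 18.7 to 220.5 in the other 5 libraries. Of the 9 osteoblast and 10 fibroblast markers in the table, 3 and 2 stand in another list.

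Erythroid markers were higher for 8 of 8 tested and summed to 1206 to 26444 RPKM in WT and 1792 to 109026 in Adamts17-/-. Myeloid markers numbered 9 higher and 1 lower of 10 and summed to 47.8 to 2214 RPKM in WT and 183 to 66361 in Adamts17-/-. Both maxima were in Adamts17-/- replicate 2, and S100a9 was listed at 0 in both groups' replicate 3. Skeletal muscle markers were lower for 9 of 9 tested and summed to 258 to 17336 RPKM in WT, with the maximum in replicate 1, and 362 to 561 in Adamts17-/-. Of 13, 6 were listed at 0 in Adamts17-/- replicate 3, Myl1 and Ckm among them, and 3 in WT replicate 3, Ckm among them. Endothelial markers numbered 1 higher and 7 lower of 8 and summed to 41.1 to 351 RPKM in WT and 72.7 to 164 in Adamts17-/-. Pecam1 and Egfl7 were listed at 0 in Adamts17-/- replicate 3, Tek and Vwf in WT replicate 2 and Emcn in WT replicate 3. Osteoclast markers numbered 1 higher and 6 lower of 7 and summed to 257 to 4628 RPKM in WT and 230.3 to 3692 in Adamts17-/-, with 1 of 8 listed at 0 in 1 library. None of the tested genes in these lists was called. Without both WT replicate 1 and Adamts17-/- replicate 2, the median log2 fold change of the 9 genes was -1.60, and all 9 values were below 0. Adamts17-/- replicate 2 had the highest mean of the 9 genes in its group, so leaving it out lowers that group's mean whatever its cell types. WT replicate 2, with the WT maximum of the erythroid sum (26444 RPKM), was kept. Nothing on cell types was concluded from this fit. The part of other cell types in these differences was not tested.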

How the data were processed

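A value for each of 14882 genes in 6 libraries was taken from the table the authors deposited. The unit is not named, and the deposited values were taken for RPKM because values times transcript length fall on multiples, or simple fractions, of 1 step per library. The table's name points to scaling by trimmed means (TMM). Sources used here do not name the aligner, counting program or build. Of the values from 1 to 20 steps (read equivalents), 21.6% to 33.6% were whole within 0.01, so no count model was used.

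Sample titles gave the groups, and sample descriptions matched the columns. Genes with at least 1 RPKM in at least 3 libraries were analysed as log2(RPKM + 1), which understates the fold of low genes. The groups were compared across all 9128 such genes with limma 3.58.1 in R 4.3.3 (empirical Bayes and a trend on intensity, two-sided, Benjamini-Hochberg, threshold 0.05). The code was tested on simulated data. Python 3.11.15, pandas 2.3.3, numpy 2.4.6 and matplotlib 3.10.9 made the tables and plots.

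The 9 genes and the 14 other lists were chosen with earlier results of these data known. Of 187 list entries, 179 were found, some through RefSeq synonyms. Named beside the 9 genes were the other collagen modification genes, the 2 genes of smallest p per direction in the export, processing, ER chaperone and hypoxia lists, the main collagens and the genes nearest to the mean pattern, 1 of which is not reported here. Other lists are given mainly as counts and sums. Kdelr2, Hspa5, Col1a2, Fndc9, Hbb-b1, markers listed at 0 and the general cartilage genes were named after their values were seen. Alternatives were pseudocounts of 0.1, 0.5 and 4, other filters and scalings, no trend, weighted libraries, a replicate block and libraries left out.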

Additional observations from a re-analysis of the deposited data

How the results depend on the processing

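The median log2 fold change of the 9 genes was below 0 in all 18 alternatives, with a lowest value of -1.92 and a highest of -0.55 (Adamts17-/- replicate 2 or 1 left out). It was -1.47 with library weights, -1.39 with totals without the top 10 genes, -1.19 with upper-quartile scaling and -0.72 with a pseudocount of 4. The median of all genes was -0.25 with totals without the top 10 genes and -0.12 with upper-quartile scaling, and at most 0.17 (minimum value of 5, under which P4ha1 and Plod1 were not tested). All members tested were below 0 except with 1 library left out, where the fewest below 0 was 7. P4hb then ran from -0.84 to 0.18 (above 0 without WT replicate 3), Plod3 from -1.84 to 0.49 (0.021 without Adamts17-/- replicate 1 and 0.49 without replicate 3) and Ppib from -1.58 to 0.48 (above 0 without Adamts17-/- replicate 3). With library weights, P4ha1, P4ha2, Plod1 and Plod2 had unadjusted p-values of 0.0412, 0.0397, 0.01 and 0.042 and adjusted p-values of 0.397 to 0.541 by limma, in a fit where 799 of 9128 genes had an unadjusted p under 0.05. None of the 160 values of these genes under alternatives passed the threshold. Over all genes, library weights called 1 gene lower. With 1 library left out, between 0 and 5 genes were called higher, the most without Adamts17-/- replicate 3, and 0 lower. The causes were not tested.

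In a fit with replicate number as a block, the median of the 9 genes was -0.93 and 0 genes were called. Deviations from the group means correlated at -0.01, -0.35 and -0.10 between same-numbered libraries, so pairing by number was not seen. Depth limits the low genes most: P4ha1, P4ha2 and Plod1 had fewer than 10 read equivalents in 3, 3 and 4 of 6 libraries.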
